A study of Mus musculus with 2 samples.

Results

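The RAS, RAF and MEK genes of the ERK cascade were examined in the ventral prostate of 3-month-old male C57BL/6J mice. The sample labelled U19/Eaf2 -/- was set against a U19/Eaf2 +/+ sample. U19/Eaf2 is induced by androgen, binds transcription elongation factors of the ELL family and is studied for its role in restraining prostate growth, and the series asked which mRNAs differ when it is lost. Each genotype had 1 sample on 1 Affymetrix array, so there are no replicates, no test was possible, and every difference describes these 2 arrays. The sources used here do not say whether several animals were pooled or how the knockout allele was built. Because the label could not be checked in the data, the sample is called the KO-labelled array.

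Genes were taken by name. Of 7 genes sought, Hras, Nras, Araf, Braf, Map2k1, Map2k2 and Mapk3, 5 were listed with probe sets of a single gene symbol, out of 18193 such genes. They carried 20 probe sets, of which Braf had 9, Araf 5, Nras 3, Map2k2 2 and Map2k1 1. Hras and Mapk3 were not analysed here, so the ERK tier itself has no measured member.

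In this cascade a growth factor receptor loads the small GTPase RAS with GTP, RAS-GTP recruits RAF kinases to the membrane, RAF phosphorylates the MEK kinases, and MEK phosphorylates ERK on a threonine and a tyrosine. Signalling runs through GTP loading and phosphorylation of proteins that are already present, so mRNA amounts of the core kinases are a measure of supply and not of activity. In the prostate the cascade acts downstream of stromal and epithelial growth factors.

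Values are linear probe-set signals in the arbitrary units of the array software. Signals below 166, the median of all non-control signals over both arrays, were treated as no more than that floor. A ratio is KO-labelled signal divided by wild-type signal, and a difference of at least 2-fold, a log2 ratio beyond 1 in size, was counted. Each direction was also read after median centring, quantile normalization and loess, called the other scalings below. Of the 20 probe sets, 18 reached the floor on at least 1 array. All 5 genes had at least 1 such probe set.

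The Eaf2 probe set read 702 on the KO-labelled array and 691 on the wild-type array. Where it lies relative to the deletion is not given, so it does not check the label. Both arrays had the same trimmed mean of 500.0. Of 6 markers of the secretory epithelium 3 were higher and 3 lower (2 to 4 higher under the other scalings), with summed signals of 138441 on the KO-labelled array and 142335 on the wild-type array. The trypsin inhibitor Spink1 read 64718 on the KO-labelled array and 62610 on the wild-type array, and the secretory protein Msmb read 32269 on the KO-labelled array and 41774 on the wild-type array. Smooth muscle markers were lower in 7 of 8 genes, with summed signals of 38545 on the KO-labelled array and 52263 on the wild-type array. Fibroblast markers were lower in 7 of 7, with sums of 18645 on the KO-labelled array and 22203 on the wild-type array. Adipocyte markers were higher in 3 of 4 genes, with sums of 2876 on the KO-labelled array and 1194 on the wild-type array. Among them, Car3 read 1278 on the KO-labelled array and 234 on the wild-type array. Retn, the lower gene, read 341 on the KO-labelled array and 387 on the wild-type array. All sums in this paragraph are of deposited signals, with values below the floor left as they were. Summed leukocyte signals were 2614 on the KO-labelled array and 2434 on the wild-type array, and endothelial signals were 1480 on the KO-labelled array and 1779 on the wild-type array. Basal epithelial signals summed to 1515 on the KO-labelled array and 1801 on the wild-type array, with Krt5 lower, Krt15 and Trp63 higher at log2 ratios of 0.04 and 0.09, and Krt14 below the floor on both. The part of tissue makeup in the values below was not tested, and in whole tissue fewer cells of a type and less RNA per cell cannot be told apart.

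Braf was the member whose signal differed by 2-fold, and it did so in 1 of its 8 probe sets above the floor. Map2k2 gave one higher and one nearly level probe set, Nras was modestly higher in all 3, Araf was split, and Map2k1 was nearly level. One gene of 5 and 1 probe set of 18 passed 2-fold, where the background was 1.47% of 11671 genes and 1.72% of 20538 probe sets, either direction counted. With so few members, 1 call gives a percentage that cannot be set against these backgrounds. Of the 18 probe sets, 9 were higher and 9 lower on the KO-labelled array, or 10 higher and 7 or 8 lower under the other scalings, and their median log2 ratio was 0.02, against -0.04 over all probe sets above the floor. Each gene was read by its brightest probe set, the one whose log2 signal averaged highest over both arrays. By this reading, 3 genes were higher and 2 lower (2 and 3 under quantile normalization), with a median log2 ratio of 0.47 over the 5, against -0.03 over all genes. That median depended on the probe set read, and was -0.018 under quantile normalization, -0.031 with the median over each gene's probe sets, and -0.066 with the probe set brightest on the wild-type array.

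**Figure D1:**
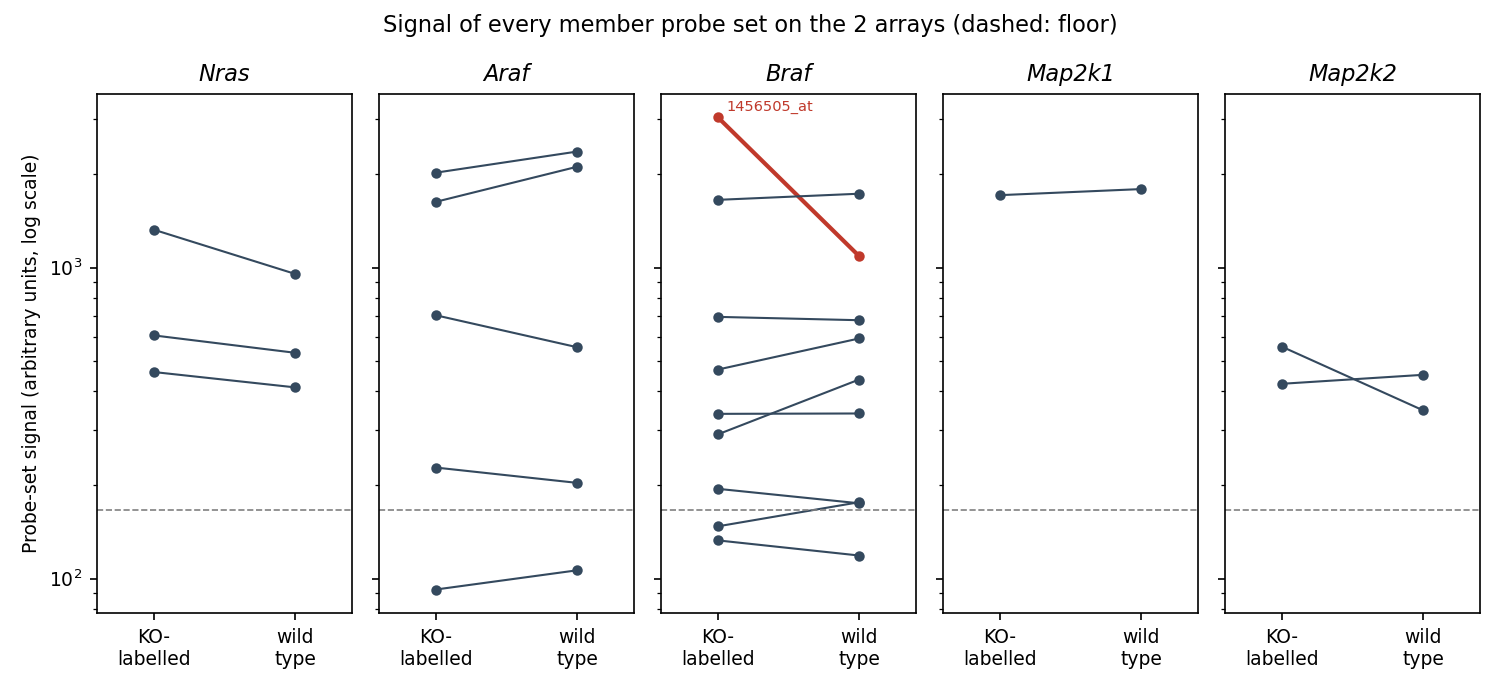
Signal of all 20 probe sets of Nras, Araf, Braf, Map2k1 and Map2k2 on the KO-labelled array (left of each panel) and the wild-type array (right), on a log axis, each line 1 probe set and the dashed line the floor of 166. The steepest line is that of Braf 1456505_at in red, at 3046 on the KO-labelled array and 1089 on the wild-type array.

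Nras encodes one of the RAS GTPases, the switch at the top of the cascade. Probe set 1454060_a_at, which represents the gene, read 1325 on the KO-labelled array and 955 on the wild-type array, 1.39-fold higher, a log2 ratio of 0.47. Probe set 1422687_at read 605 on the KO-labelled array and 532 on the wild-type array, a log2 ratio of 0.19. The third, 1422688_a_at, read 462 on the KO-labelled array and 412 on the wild-type array, a log2 ratio of 0.16. All 3 Nras probe sets were therefore higher on the KO-labelled array, and they stayed higher under median centring, quantile normalization and loess. The last 2 are listed with the same target transcript and differed by 0.02 on the log2 scale, so they are not independent readings. Among all genes with 3 probe sets above the floor, 14.0% had all 3 higher and 32.5% had all 3 in the same direction.

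Other RAS-family GTPases were split. Mras, the M-Ras GTPase that takes part in activating RAF, read 417 on the KO-labelled array and 278 on the wild-type array, a log2 ratio of 0.59. Rras, an R-Ras GTPase linked to integrin adhesion, had a log2 ratio of -0.34, and its relative Rras2 of -0.04. None of these reached 2-fold.

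Araf, A-Raf, is one of the RAF kinases that RAS-GTP recruits. Its representing probe set 1426602_at read 2019 on the KO-labelled array and 2361 on the wild-type array, a log2 ratio of -0.23. Probe set 1435566_s_at read 1627 on the KO-labelled array and 2109 on the wild-type array, a log2 ratio of -0.37. These 2 probe sets were lower on the KO-labelled array.

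The other Araf probe sets went the opposite way or lay below the floor. Probe set 1445693_at read 703 on the KO-labelled array and 555 on the wild-type array, a log2 ratio of 0.34. Probe set 1428607_at read 228 on the KO-labelled array and 203 on the wild-type array, a log2 ratio of 0.16. Probe set 1440764_at, at 92.3 on the KO-labelled array and 106 on the wild-type array, was below the floor on both and gives no ratio. With 2 of 4 usable probe sets on each side, a range of 0.72 and a median of -0.03 on the log2 scale, the direction for Araf depended on the probe set read. The 4 signs were kept under all 3 other scalings.

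Braf, B-Raf, is the RAF kinase with the strongest basal activity toward MEK. Its representing probe set 1456505_at read 3046 on the KO-labelled array and 1089 on the wild-type array, 2.80-fold higher, a log2 ratio of 1.48. This probe set ranked 24th from the top among 20538 by log2 ratio. Of 5688 probe sets with a signal of at least 1000 on both arrays, 16 were at least 2-fold higher and 3, this one included, were at least as much higher. The limit of 1000 was not planned and lies just below the wild-type signal of this probe set. The count therefore describes its place among bright probe sets and tests nothing.

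The next Braf probe set by mean signal, 1435434_at, read 1651 on the KO-labelled array and 1728 on the wild-type array, a log2 ratio of -0.07. Probe set 1435480_at read 694 on the KO-labelled array and 677 on the wild-type array, a log2 ratio of 0.04. Probe set 1447940_a_at read 339 on the KO-labelled array and 340 on the wild-type array, a log2 ratio of -0.004007. These 3 were close to level, and scaling alone turned the last of them to 0.03, 0.11 and 0.11 under median centring, quantile normalization and loess.

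Braf signals were lower in the next probe sets. Probe set 1458641_at read 470 on the KO-labelled array and 592 on the wild-type array, a log2 ratio of -0.33. Probe set 1425693_at read 291 on the KO-labelled array and 437 on the wild-type array, 1.501-fold lower, a log2 ratio of -0.59, the lowest of the 17 measured on both arrays. These are opposite in direction to 1456505_at and short of 2-fold.

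Near the floor, Braf 1445786_at read 194 on the KO-labelled array and 175 on the wild-type array, a log2 ratio of 0.15. Probe set 1447941_x_at read 147, below the floor, on the KO-labelled array and 176 on the wild-type array, at least 1.06-fold lower, and it shares its listed target with 1447940_a_at. Probe set 1442749_at, at 133 on the KO-labelled array and 119 on the wild-type array, was below the floor on both. Of the 7 usable Braf probe sets beside 1456505_at, 2 were higher and 5 lower, or 3 higher and 3 or 4 lower under the other scalings, and 0 of the 7 reached 2-fold in either direction. The median over the 8 was -0.03.

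The log2 ratios of the 8 Braf probe sets spanned 2.07. Over the 369 genes that had 5 or more usable probe sets the median span was 0.86, and 7 genes, Braf included, spanned at least as much as Braf, 1.90%. Braf was singled out with the disagreement of its probe sets already known, so this share describes its place and tests nothing. A span can only widen as probe sets are added, and genes were not matched to Braf on their number, here or below. Without 1456505_at the Braf span was 0.74. With the probe set farthest from its gene's median left out in every one of the 369 genes, a comparison added after the Braf values were seen, the median span was 0.52, and 82 genes, 22.2%, spanned at least the 0.74 of Braf.

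**Figure D2:**
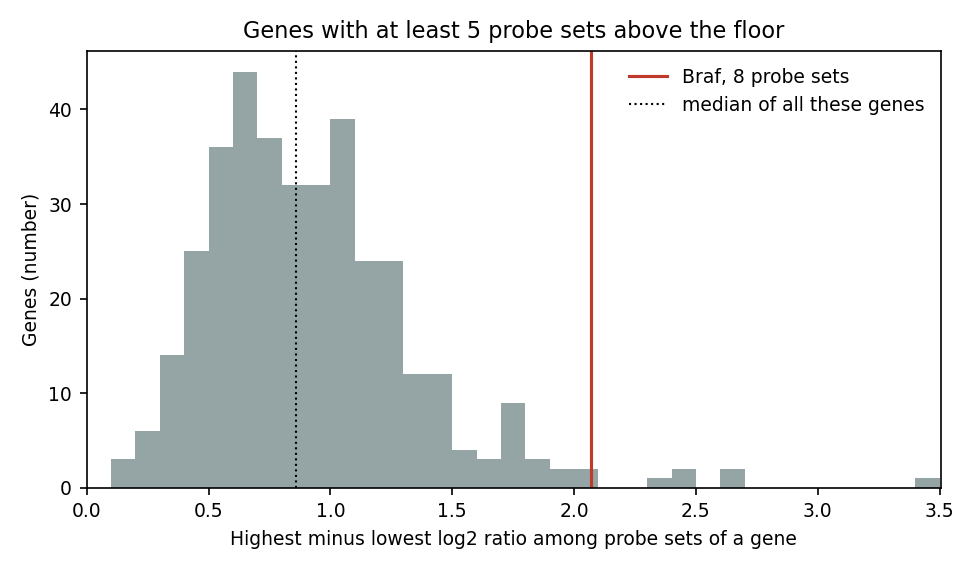
Histogram of the span between the highest and lowest log2 ratio among probe sets of a gene, for the 369 genes that had 5 or more usable probe sets, with the number of genes on the vertical axis. Braf (solid red) stands at 2.07 over its 8 probe sets, and the median gene (dotted black) at 0.86. Genes were not matched on their number of probe sets.

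Which probe set stood for Braf also turned on that reading. The mean log2 signal of 1456505_at was 10.8 against 10.7 for 1435434_at, a gap of 0.11. If the probe set with the highest wild-type signal stood for each gene, Braf was represented by 1435434_at at -0.07 and no member passed 2-fold. Over all genes, 14 of the 172 calls at 2-fold were lost under that choice, but others were gained. It gave 178 calls, 55 higher and 123 lower. With the probe set brightest on the KO-labelled array, Braf stayed at 1.48 and 1 member passed 2-fold. That choice gave 170 calls, 83 higher and 87 lower. Of the 172 genes called by mean log2 signal, 64 had another probe set above the floor. In 8 of the 64, 12.5%, another passed 2-fold in the same direction, and Braf was not among them.

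Map2k1 encodes MEK1, one of the dual-specificity kinases that phosphorylate ERK. Its probe set 1416351_at read 1710 on the KO-labelled array and 1788 on the wild-type array, a log2 ratio of -0.06. This was the smallest difference among the genes' representing probe sets, and it ran from -0.12 to -0.03 over the 12 settings tried.

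Map2k2 encodes MEK2, the close relative of MEK1. Probe set 1460636_at, which represents the gene, read 557 on the KO-labelled array and 347 on the wild-type array, 1.60-fold higher, a log2 ratio of 0.68. Probe set 1415974_at read 423 on the KO-labelled array and 452 on the wild-type array, a log2 ratio of -0.10. The platform annotation lists the same target transcript for both, yet they lay 0.78 apart on the log2 scale. Among 2967 pairs of probe sets that share a gene and a listed target, both measured on both arrays, the median distance was 0.28 and 9.10% were at least as far apart as the Map2k2 pair. Such pairs had the same sign in 59.2%, against 55.0% of 9332 pairs of the same gene with different or unlisted targets. The signs of both Map2k2 probe sets were kept under the 3 other scalings, but under quantile normalization 1415974_at had the higher mean signal and the gene's value became -0.02.

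**Figure D3:**
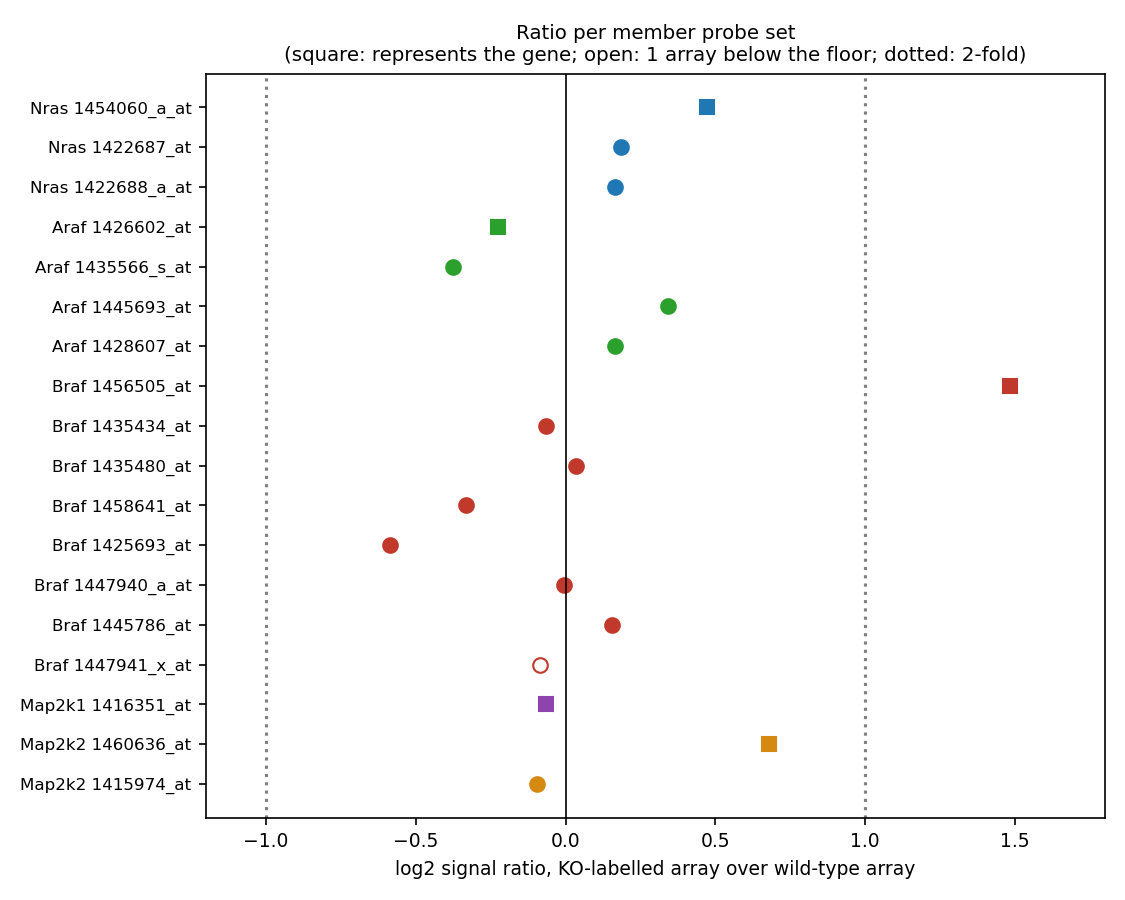
Log2 ratio, KO-labelled over wild-type signal, for the 18 member probe sets above the floor, squares for the probe set that represents its gene, an open circle for 1447941_x_at (below the floor on the KO-labelled array) and dotted lines at 2-fold. Braf 1456505_at at 1.48 lies beyond the 2-fold line, and the other 17 lie between -0.59 and 0.68.

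Between probe sets sharing a gene, the SD of a log2 ratio was 0.36 per probe set over 12299 pairs. These pairs were measured on both arrays, and 9332 of them had different or unlisted targets. The SD therefore holds probe-level error together with any difference between target transcripts. It leaves out the spread between animals, dissections and hybridisations. Of the 18 probe sets 13 had a log2 ratio within this SD, 72.2%, against 67.5% of all probe sets above the floor. The 5 beyond it were Braf 1456505_at and 1425693_at, Map2k2 1460636_at, Nras 1454060_a_at and Araf 1435566_s_at, of which 3 were higher and 2 lower on the KO-labelled array.

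The other genes of the cascade were taken by role, in 8 lists. Of their 82 genes 73 were listed with a single-symbol probe set and 59 reached the floor. Of the 59, 31 were higher and 28 lower, with 32 to 34 higher under the other scalings. Of them 0 passed 2-fold in either direction where the background was 1.47% of genes, and their median log2 ratio was 0.04, against -0.03 over all genes. Genes with 1 array below the floor have only a bound. With the 30th percentile as floor, 4 pathway genes passed 2-fold, where the background rose to 4.75% of 14920 genes. The number of pathway genes reaching that lower floor is not given here. Of the 4, Ksr1, Dusp5 and Etv5 had 1 array below the main floor. Etv4 was below it on both arrays and was not among the 59. At the level of probe sets, 4 of 114 passed 2-fold, where the background was 1.72%. Chosen after their values were seen, these were Ets2 1447685_x_at, at least 2.89-fold higher, and Spred1 1428777_at, at least 2.07-fold higher, both with a wild-type signal under the floor, Elk4 1422233_at at a log2 ratio of 1.12, and Ywhaz 1436981_a_at at -1.72. In each case the probe set that represents the gene lay inside 2-fold.

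Upstream of RAS, adaptors and exchange factors were higher in 6 of 9 genes, with a median log2 ratio of 0.14. Grb2, the adaptor that links receptors to the exchange factor SOS, read 1340 on the KO-labelled array and 778 on the wild-type array, a log2 ratio of 0.78, but its other probe set had -0.16. Sos1, the exchange factor itself, had 0.38 in one probe set and -0.95 in the other. Shc1, a receptor adaptor, had the lowest ratio among those measured on both arrays, -0.37, with -0.60 in its other probe set. This list's median ran from -0.05 to 0.38 over the alternatives.

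GTPase-activating proteins, which switch RAS off, were higher in 2 of 6 genes, or 3 under quantile normalization and loess, and had a median of -0.10. Rasa2 read 927 on the KO-labelled array and 591 on the wild-type array, a log2 ratio of 0.65, with 0.80 in its other probe set. Dab2ip had -0.17 and neurofibromin, Nf1, -0.14, while Rasal3 read 132, below the floor, on the KO-labelled array and 187 on the wild-type array, at least 1.13-fold lower. The enzymes that attach and trim the lipid anchor of RAS were higher in 3 of 6 genes (4 of 6 under loess). Their median was -0.003285, and it was above 0 under the 3 other scalings. Fnta, the alpha subunit of farnesyltransferase, had a log2 ratio of 0.36, with -0.18 in its other probe set, and Fntb, the beta subunit, read 182 on the KO-labelled array and 292 on the wild-type array, a log2 ratio of -0.69.

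Scaffolds and RAF regulators were higher in 8 of 12 genes (9 of 12 under median centring, 7 of 11 under quantile normalization), with a median of 0.16. Ywhaz, a 14-3-3 protein of the family that binds phosphorylated RAF, read 11225 on the KO-labelled array and 7499 on the wild-type array, a log2 ratio of 0.58, with other probe sets from -1.72 to 0.74. Cnksr1, a scaffold that binds RAF, read 325 on the KO-labelled array and 605 on the wild-type array, 1.86-fold lower. Ksr1, a RAF scaffold, read 183 on the KO-labelled array and 59.8, under the floor, on the wild-type array, at least 1.10-fold higher, so it cannot be ranked against Ywhaz.

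Feedback inhibitors and ERK phosphatases, many of them transcribed when ERK is active, were higher in 4 of 7 genes with a median of 0.01. Spry2, a Sprouty inhibitor, read 3027 on the KO-labelled array and 1984 on the wild-type array, a log2 ratio of 0.61. Dusp5, a nuclear ERK phosphatase, read 49.3, below the floor, on the KO-labelled array and 216 on the wild-type array, at least 1.30-fold lower. Dusp6, the cytoplasmic ERK phosphatase, had a log2 ratio of -0.33, so members of this feedback group lay on both sides of 0.

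ERK substrate kinases and transcription factors were higher in 5 of 9 genes with a median of 0.04. The highest was Rps6ka5, the kinase MSK1, at 0.60 with -0.07 in its other probe set, and the lowest was Elk3, an ETS factor, at -0.54. Genes that ERK signalling induces were higher in 2 of 7, or 3 of 7 under the other scalings, with a median of -0.05. Phlda1 was highest at 0.32, and Ier3 had -0.27. Etv5, an ETS factor, read 64.3, below the floor, on the KO-labelled array and 196 on the wild-type array, at least 1.18-fold lower, so the 2 lower genes cannot be ranked. The immediate-early factor Egr1 read 793 on the KO-labelled array and 823 on the wild-type array.

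The parallel kinases of the JNK, p38 and ERK5 cascades were set beside the RAS, RAF and MEK genes. Of 10 above the floor 5 were higher and 5 lower, 0 passed 2-fold, and the median log2 ratio was -0.02, or 0.01 under median centring. Map2k4, an activator of JNK, was highest among those measured on both arrays at 0.43, with -0.14 in its other probe set. Map2k5, the activator of ERK5, was lowest at -0.22, but its 2 other probe sets had -0.16 and 0.68. The difference between these kinases and the RAS, RAF and MEK genes was not tested.

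**Figure D4:**
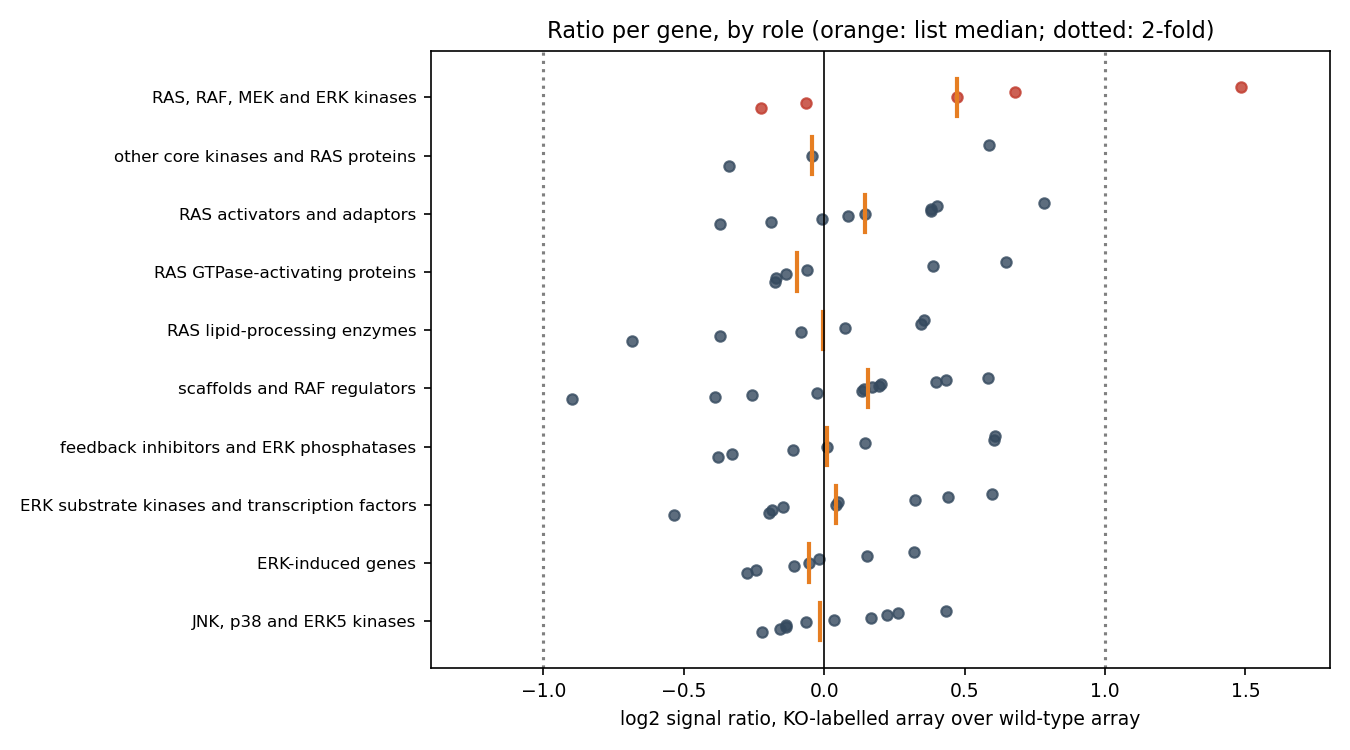
Log2 ratio, KO-labelled over wild-type signal, for each gene by its representing probe set, in rows by role, the 5 RAS, RAF and MEK genes in red in the top row, with list medians in orange and dotted lines at 2-fold. Braf at 1.48 lies beyond 2-fold and every other plotted gene lies within it, genes with an array below the floor being plotted at their bound.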

How the data were processed

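Total RNA of each sample was biotin-labelled and hybridised to 1 array, per the labels' protocols. The authors deposited a linear signal for each probe set, made with GCOS 1.4, per the submitters' processing notes, whose settings are not stated. The signal mean without the highest and lowest 2% of the 45101 probe sets was 500.0 on both arrays. Detection calls were not used here.

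Gene names came from GEO's platform annotation, where 34945 of 45037 that were not controls had 1 symbol, 932 several and 9160 none. Through Entrez IDs 34741 were found in a GRCm38.p6 gene table, used for names only, and 0 symbols differed. Signals below the 50th percentile were raised to it, log2 ratios were taken without a pseudocount, and genes entered when an array reached the floor. The median signal was 154 on the KO-labelled array and 177 on the wild-type array. With 1 array per group no p-value or error between animals exists, and precision is limited by the number of arrays. The 3' over 5' ratio of Actb was 1.65 on the KO-labelled array and 1.25 on the wild-type array. Its part in the results was not tested.

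All genes of the family were named, with the highest and lowest gene of each pathway list. Rras2, Sos1, Nf1, Rasal3, Ksr1, Dusp6, Etv5 and Egr1 were added for their roles after their values were seen. The genes, lists and alternatives were chosen with earlier results of these data known. Probe sequences were not used here. The calculation was tested on simulated arrays in which all probe sets of a changed gene shifted by the same amount. That test does not bear on genes whose probe sets disagree. Python 3.11.15, pandas 2.3.3 and statsmodels 0.14.6 were used.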

Additional observations from a re-analysis of the deposited data

How the results depend on the processing

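No paired analysis was possible because each group held 1 sample. Of the 2-fold counts, the member genes went to 2 at a 1.5-fold threshold, where 10.95% of all genes passed, and to 0 at 3-fold, with the median over probe sets and with the probe set brightest on the wild-type array. Member probe sets went to 3 of 18 at 1.5-fold, 2 higher and 1 lower, and to 0 at 3-fold. The share of all probe sets past these thresholds was not computed, so these counts have no background. Braf had a log2 ratio of -0.035 with the median over probe sets and of -0.066 with the probe set brightest on the wild-type array, since each leaves 1456505_at without its weight, and 1.43 to 1.51 under the other scalings. The median over the 5 genes was -0.018 under quantile normalization, -0.031 with the median over probe sets and -0.066 with the probe set brightest on the wild-type array. The range among Braf probe sets was 0.74 with 1456505_at left out. Pathway genes past 1.5-fold numbered 8 of 59, where 10.95% of all genes passed. Those past 2-fold numbered 4 with the floor at the 30th percentile (Ksr1 higher, and Dusp5, Etv4 and Etv5 lower) and 11 with no floor. At these 2 floor settings 4.75% and 15.7% of all genes passed. Calls over all genes numbered 172, and 62 with the floor at the 70th percentile, 95 with a pseudocount of 50 and 12 at 3-fold. Their split was 69 higher and 103 lower as deposited, 75 and 90 under median centring, 82 and 73 under quantile normalization, and 77 and 76 under loess. The choices of the brightest probe set on a single array and the omission of 1456505_at, or of each gene's farthest probe set, were made after seeing the data.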
